A study of Homo sapiens with 6 samples.

Results

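The results concern 10 genes that growth factor signalling through the kinase ERK is known to switch on and that, for the most part, restrain it: the phosphatases DUSP1, DUSP4, DUSP5 and DUSP6, the inhibitors SPRY2, SPRY4 and SPRED1, the transcription factors ETV4 and ETV5, and PHLDA1. They were chosen by gene symbol, with earlier results of these data known. Each of the 10 symbols matched 1 row of the deposited table of 58735 genes. All 10 had enough reads to be tested, among 15694 genes tested in all. The RNA came from T84 cells, a line derived from human colorectal cancer, in 3 shACSL4 and 3 shControl libraries. The shACSL4 libraries carried a short hairpin RNA against ACSL4, which couples polyunsaturated fatty acids such as arachidonic acid to coenzyme A, and are labelled as a knockdown. The shControl libraries are named for a control hairpin and labelled wild type. All cells grew in DMEM/F12 with fetal bovine serum and antibiotics, so both groups were in medium with serum. The series text speaks of a knockout while the titles name hairpins, and how many hairpins or clones stand behind a group is not given in the sources used here. Whether replicates were separate cultures is likewise unlabelled: p-values therefore measure only the spread between these libraries, which may be technical.

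Receptor tyrosine kinases pass a signal through the adaptor GRB2, RAS, RAF kinases and MEK to ERK, which enters the nucleus and alters transcription. Among the genes ERK induces are its own brakes: dual specificity phosphatases (DUSPs) that remove the activating phosphates from ERK and related MAP kinases, and Sprouty and SPRED proteins that act between the receptor and RAF. The PEA3 group of ETS transcription factors, which includes ETV4 and ETV5, carries part of the transcriptional output, and the repressor CIC, which ERK inactivates, is known to hold ETV4, ETV5 and several DUSP and Sprouty genes down. In colorectal tumours, where RAS and RAF are often mutated, the RNA levels of these genes are widely used as a readout of ERK output. RNA levels alone do not measure ERK phosphorylation, and no phosphorylation data were used here.

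The promoters of DUSP1 and SPRY2 are shown because, of the genes with a window at hand, only these had no exon before the start. DUSP1 is the textbook case of a phosphatase gene that answers to cyclic AMP response elements (CREs) as well as to MAP kinases. The stretches are the 250 bases before the RefSeq start on GRCh38.p14, in the gene's direction, at chr5:172771196-172771445 on the minus strand for DUSP1 and at chr13:80341127-80341376 on the minus strand for SPRY2. Neither stretch overlaps an exon in GENCODE release 29. Capitals mark the short CRE motif TGACG on either strand, the ETS core CCGGAA on either strand and the TATA box TATAAA on the given strand.
DUSP1: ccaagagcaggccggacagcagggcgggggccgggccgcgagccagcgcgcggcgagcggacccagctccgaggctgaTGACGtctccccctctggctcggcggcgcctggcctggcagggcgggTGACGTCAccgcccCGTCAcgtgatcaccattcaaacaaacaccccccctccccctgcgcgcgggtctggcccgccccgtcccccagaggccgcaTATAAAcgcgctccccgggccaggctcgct
SPRY2: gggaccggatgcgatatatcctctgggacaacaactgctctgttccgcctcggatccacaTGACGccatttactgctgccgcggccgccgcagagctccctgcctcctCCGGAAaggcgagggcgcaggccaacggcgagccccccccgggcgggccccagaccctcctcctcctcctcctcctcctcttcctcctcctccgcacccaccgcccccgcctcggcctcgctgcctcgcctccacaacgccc
The DUSP1 window, searched with the 50 bases after the start included, held 4 short CRE motifs, of which 2 overlap to form the full CRE TGACGTCA. A full CRE was present in 1.85% of 35116 RefSeq promoter windows of 300 bases, at least 2 short motifs in 6.02% and at least 1 in 24.6%. Windows were at hand for 6 of the 10 genes, as 8 windows because SPRY2 has 3 starts (none was used for DUSP4, DUSP5, ETV4 and ETV5). A short CRE motif was found in 3 of the 8 windows, those of DUSP1, SPRY2 (1 of its 3 windows) and SPRY4; the first pair were higher in shACSL4 and SPRY4 was lower. The motif contains a CpG, and these windows held 36, 30 and 26 CpGs, against a median of 14 over all windows. SPRED1, also higher in shACSL4, had 32 CpGs in its window and no short CRE motif. The ETS core was found in SPRY2 and PHLDA1, and in 17.2% of all windows. None of the 8 windows held the CIC octamers TGAATGAA or TGAATGGA (2.63% of all windows), an AP-1 site TGANTCA (7.71%) or a CArG box (1.29%), each searched on both strands. A match is a match of letters only and does not show that a factor binds there.

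Total counts ranged from 14740383 to 17189496 in the shACSL4 libraries and from 15119283 to 17620630 in the shControl libraries. ACSL4 itself was at 10.2 ± 0.979 CPM in shACSL4 and 73.2 ± 1.98 CPM in shControl (SD, n = 3 each; CPM are counts scaled to the TMM-adjusted library size). Of 10 markers of colonic epithelium, among them EPCAM, CDX2 and VIL1, all 10 were above 1 CPM in every library, with summed levels of 7980 to 9289 CPM in shACSL4 and 6884 to 8152 CPM in shControl. These markers moved too. Of the 10, 5 were called higher in shACSL4, among them KRT20 (log2 fold change 0.88, adjusted p = 3.09e-07, edgeR), KRT8 (0.51) and VIL1 (0.47). The 2 called lower were EPCAM (-0.42) and GPA33 (-0.24). Among all genes tested 24.0% were called higher and 23.1% lower. Summed levels of 6 fibroblast markers stayed between 2.40 and 2.68 CPM in shACSL4 and between 2.26 and 4.37 CPM in shControl, with COL1A1 called lower (-1.49), and those of 5 endothelial markers between 0.705 and 1.08 CPM in shACSL4 and between 0.740 and 1.25 CPM in shControl. The 6 leukocyte markers summed to 5.81 to 8.03 CPM in shACSL4 and 16.6 to 27.9 CPM in shControl, most of it LYZ (4.48 CPM in shACSL4 and 20.8 CPM in shControl on average), the lysozyme gene, which Paneth cells also express, while CD3E was at 0 in every library. The part of these marker differences in the results below was not tested. In a bulk culture, fewer cells that express a gene and less RNA of it per cell cannot be told apart.

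The feedback genes did not move as a block. DUSP1, DUSP4, SPRY2 and SPRED1 rose in shACSL4, whereas DUSP5, SPRY4, ETV4 and PHLDA1 fell, and DUSP6 and ETV5 did not pass the test. With edgeR's quasi-likelihood test and Benjamini-Hochberg adjustment over all genes, 8 of the 10 were called at an adjusted p below 0.05. Of all genes tested, 47.2% were called, 24.0% higher and 23.1% lower in shACSL4, so a call on its own was common in this comparison. The 10 changes ran from -1.29 to 1.92 on the log2 scale, with a median of -0.07 beside 0.01 for all genes tested. Their median absolute change was 0.66, beside 0.35 for all genes tested. Levels of the groups did not overlap for 9 of the 10 genes, DUSP6 being the exception, and for 55.1% of all genes tested. In 4 of the 9 all shACSL4 libraries were above (28.3% of all genes tested) and in 5 all were below (26.8%). Because the 10 were chosen with earlier results of these data known, these comparisons with all genes describe the set and do not test it. In the authors' deposited table the log2 fold changes were 1.91 for DUSP4, 0.05 for DUSP6 and -1.31 for PHLDA1.

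**Figure D1:**
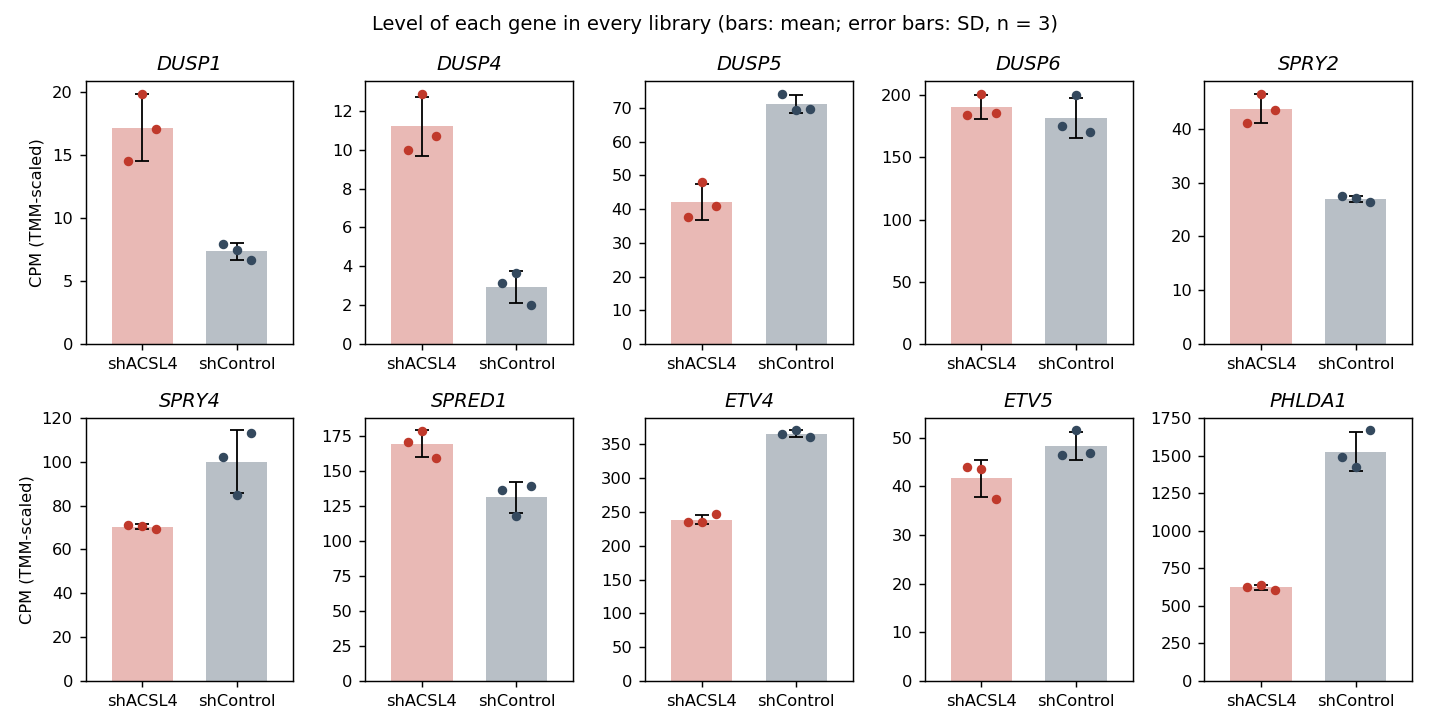
Level of each of the 10 genes in CPM after TMM scaling, one panel per gene with shACSL4 at the left and shControl at the right; points are libraries, bars are means and error bars are SD (n = 3). In the DUSP4 panel the shACSL4 libraries lie between 10.0 and 12.9 CPM, above all shControl libraries, and in the PHLDA1 panel they lie between 605 and 637 CPM, below all shControl libraries.

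Of the nuclear phosphatases, DUSP4 (ENSG00000120875, GRCh38 chromosome 8, 29333064 to 29350668, minus strand), which acts on ERK and JNK, had the largest change of the 10. It was at 10.0, 12.9 and 10.7 CPM in shACSL4 replicates 1, 2 and 3, against 3.15, 3.64 and 2.02 CPM in shControl replicates 1, 2 and 3. Every shACSL4 library was above every shControl library. The log2 fold change was 1.92 (SE 0.21, adjusted p = 1.16e-06, edgeR), which is 3.79-fold with a 95% interval of 2.81 to 5.12. DUSP4 was also the least abundant, counted 53, 58 and 30 times in the shControl libraries, where its coefficient of variation was 28.4%, against a counting error of 14.6%. On log2(FPKM + 1), where the added 1 shrinks the change of low values, the change was 0.84 and was still called by limma-trend (adjusted p = 0.000335).

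DUSP1 (ENSG00000120129, chromosome 5, 172768090 to 172771195, minus strand), a phosphatase of p38, JNK and ERK and a classic immediate early gene, rose as well. Its level was 14.6, 19.9 and 17.1 CPM in shACSL4 replicates 1, 2 and 3, against 7.97, 7.47 and 6.66 CPM in shControl replicates 1, 2 and 3. All shACSL4 libraries were above the shControl libraries, and shACSL4 replicate 2 was the highest. Its log2 fold change was 1.22 (SE 0.15, adjusted p = 4.92e-06, edgeR), or 2.33-fold. This is the gene with the full CRE in the sequence shown. Whether the CRE had a part in the rise was not tested.

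DUSP5 (ENSG00000138166, chromosome 10, 110497838 to 110511544, plus strand), a nuclear phosphatase specific for ERK, moved the other way. It was at 37.6, 48.2 and 40.8 CPM in shACSL4 replicates 1, 2 and 3, against 74.3, 69.4 and 69.8 CPM in shControl replicates 1, 2 and 3. The groups were well apart, although shACSL4 replicate 2 was again the highest of its group. On the log2 scale DUSP5 changed by -0.75 (SE 0.10, adjusted p = 9.71e-06, edgeR).

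DUSP6 (ENSG00000139318, chromosome 12, 89347232 to 89353271, minus strand), the cytoplasmic ERK phosphatase and among the most used transcript markers of ERK activity, was not called. It was at 184, 201 and 186 CPM in shACSL4 replicates 1, 2 and 3, against 175, 199.9 and 170 CPM in shControl replicates 1, 2 and 3. The groups overlapped, since shControl replicate 2 lay above 2 of the 3 shACSL4 libraries. Its change was 0.07 on the log2 scale (SE 0.09, adjusted p = 0.571, edgeR), with a 95% interval of -0.12 to 0.25, so the interval leaves room for a rise of up to 1.19-fold or a fall to 0.919 of the shControl level. It had 2533 to 3528 counts per library, and its coefficient of variation was 5.02% in shACSL4 and 8.79% in shControl, against counting errors of 1.79% and 1.86%. An antisense gene that overlaps its 5′ part, AC024909.2, had 5 to 27 counts per library.

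The Sprouty genes split. SPRY2 (ENSG00000136158, chromosome 13, 80335976 to 80340951, minus strand), whose product binds GRB2 and the ubiquitin ligase CBL, was at 41.1, 46.5 and 43.5 CPM in shACSL4 replicates 1, 2 and 3, against 27.4, 27.1 and 26.4 CPM in shControl replicates 1, 2 and 3. All shACSL4 libraries were above the shControl libraries, whose coefficient of variation of 1.87% was below the counting error of 4.83%. SPRY2 changed by 0.70 on the log2 scale (SE 0.09, adjusted p = 1.32e-05, edgeR), which is 1.62-fold. SPRY4 (ENSG00000187678, chromosome 5, 142310427 to 142326455, minus strand), its relative in the same inhibitory role, was at 71.1, 70.9 and 69.1 CPM in shACSL4 replicates 1, 2 and 3, against 102, 84.7 and 113 CPM in shControl replicates 1, 2 and 3. Here the shACSL4 libraries were nearly level and the shControl libraries spread widely, shControl replicate 2 being the nearest to shACSL4. SPRY4 changed by -0.51 on the log2 scale (SE 0.10, adjusted p = 0.000502, edgeR). SPRY4-AS1, which overlaps the start of SPRY4 on the other strand, had 5 to 19 counts per library.

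SPRED1 (ENSG00000166068, chromosome 15, 38252326 to 38357249, plus strand), which brings the RAS inactivator neurofibromin to the membrane, had the smallest change that was called. It was at 170, 179 and 159 CPM in shACSL4 replicates 1, 2 and 3, against 136, 118 and 139 CPM in shControl replicates 1, 2 and 3. The groups did not overlap, with shACSL4 replicate 3 and shControl replicate 3 nearest to each other. This gives a log2 fold change of 0.37 (SE 0.09, adjusted p = 0.00278, edgeR), or 1.29-fold.

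Both PEA3 factors were lower in all 3 shACSL4 libraries, but only ETV4 was called. ETV4 (ENSG00000175832, chromosome 17, 43527844 to 43579620, minus strand) was at 235, 235 and 247 CPM in shACSL4 replicates 1, 2 and 3, against 366, 371 and 361 CPM in shControl replicates 1, 2 and 3. Both groups were tight. ETV4 changed by -0.61 on the log2 scale (SE 0.08, adjusted p = 1.36e-05, edgeR). Of the 50 tested coding genes nearest to ETV4, 27 were called lower and 4 higher, with a median of -0.32; relative to that median the change of ETV4 was -0.30 (unadjusted p = 0.00235). This comparison with neighbours was chosen after seeing the data. DHX8, which overlaps ETV4 on the other strand, was at 89.0 ± 10.4 CPM in shACSL4 and 96.4 ± 6.95 CPM in shControl (SD, n = 3 each; log2 fold change -0.11, adjusted p = 0.355, edgeR), and how reads of this pair were shared out is uncertain.

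ETV5 (ENSG00000244405, chromosome 3, 186046308 to 186110318, minus strand) was at 44.0, 43.6 and 37.3 CPM in shACSL4 replicates 1, 2 and 3, against 46.4, 51.5 and 46.9 CPM in shControl replicates 1, 2 and 3. The groups did not overlap, but the gap between them was small beside their spread. Its change on the log2 scale was -0.21 (SE 0.10; unadjusted p = 0.0395, adjusted p = 0.0767, edgeR). Its 5′ end overlaps DGKG on the same strand, which fell to 2.85 ± 0.248 CPM in shACSL4, against 13.3 ± 0.787 CPM in shControl (SD, n = 3 each; log2 fold change -2.22, adjusted p = 1.63e-08, edgeR). Whether reads of DGKG entered the ETV5 count was not tested.

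PHLDA1 (ENSG00000139289, chromosome 12, 76025447 to 76033932, minus strand), a pleckstrin homology-like protein induced by growth factors and also known as a marker of intestinal stem cells, had the largest fall. Its level was 626, 637 and 605 CPM in shACSL4 replicates 1, 2 and 3, against 1489, 1421 and 1668 CPM in shControl replicates 1, 2 and 3. The gap between the groups was larger than the spread within either, which was wider in shControl (SD 128 CPM) than in shACSL4 (SD 16.3 CPM). PHLDA1 changed by -1.29 on the log2 scale (SE 0.10, adjusted p = 1.71e-08, edgeR), so 0.408 of the shControl level was left. With 9565 to 25024 counts per library it was the most deeply counted of the 10, and its counting error was 0.992% in shACSL4 and 0.643% in shControl.

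The deposited FPKM values, which scale counts by gene length, allow levels of different genes to be compared. In shACSL4, PHLDA1 was the highest at 76.0 ± 2.12 FPKM and DUSP4 the lowest at 1.52 ± 0.209 FPKM (SD, n = 3 each), so mean levels spanned 50.04-fold. In shControl the same 2 genes were at the ends, PHLDA1 at 188 ± 14.3 FPKM and DUSP4 at 0.403 ± 0.117 FPKM (SD, n = 3 each). The span there was 466-fold, with DUSP4 counted only 53, 58 and 30 times in the shControl libraries. The genes highest in shControl, PHLDA1 and ETV4, were lower in shACSL4, and those lowest in shControl, DUSP1 and DUSP4, were higher. DUSP6, the next highest in shControl, was not called. ETV5, the next lowest, was lower in shACSL4 without being called. The shControl level that ranks the genes also enters the change, so this describes the ends of the order and tests nothing. In shACSL4 the order was PHLDA1, ETV4, DUSP6, SPRED1, DUSP5, SPRY2, SPRY4, DUSP1, ETV5 and DUSP4, where the libraries of DUSP5 and SPRY2, and those of DUSP1 and ETV5, overlapped. In shControl the order was PHLDA1, ETV4, DUSP6, DUSP5, SPRED1, SPRY4, SPRY2, ETV5, DUSP1 and DUSP4, where the libraries of SPRED1 and SPRY4, and those of SPRY2 and ETV5, overlapped. SPRY2 thus stood above SPRY4 in shACSL4, at 14.2 ± 0.919 against 10.6 ± 0.168 FPKM, and below it in shControl, at 8.82 ± 0.223 against 15.1 ± 2.07 FPKM (SD, n = 3 each).

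**Figure D2:**
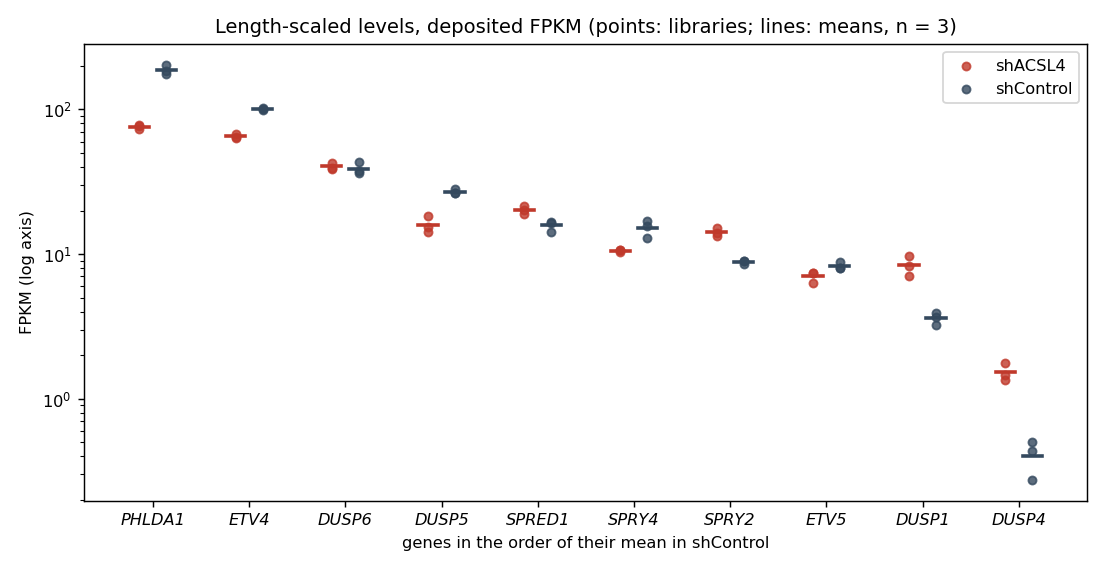
Deposited FPKM of the 10 genes on a log axis, ordered by the mean in shControl, with shACSL4 at the left and shControl at the right of each gene; points are libraries and short lines are means (n = 3). PHLDA1 and ETV4 are lower and DUSP1 and DUSP4 higher in shACSL4. From DUSP4, the lowest, to PHLDA1, the highest, mean levels span 50.04-fold in shACSL4 and 466-fold in shControl.

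Of the shACSL4 libraries, 1 stood highest for most of these genes. Among the shACSL4 libraries, replicate 2 was the highest for 7 of the 10 genes and the lowest for none, while over all genes tested it was the highest for 31.8%. Replicate 1 was the lowest for 6 and replicate 3 for 4. EGR1, an immediate early transcription factor, was likewise highest in shACSL4 replicate 2, with 226 CPM, against 150.4 and 161 CPM in replicates 1 and 3. Without shACSL4 replicate 2 all 8 calls were still made, DUSP1 at 1.10 and DUSP5 at -0.86. Among the shControl libraries, replicates 1, 2 and 3 were the highest for 3, 4 and 3 genes.

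The relatives of the feedback genes also moved both ways. Of the 6 other MAP kinase phosphatases, 3 rose (DUSP8, DUSP10 and DUSP16) and 2 fell (DUSP2 and DUSP7), against 24.0% higher and 23.1% lower among all genes tested. Only 2 were called higher when shACSL4 replicate 1, shACSL4 replicate 2 or shControl replicate 1 was left out, and 1 was called lower without shControl replicate 2. Their median change was 0.12. Arranged by textbook substrate, a grouping made after the values were seen, the 3 called higher over all 6 libraries are those that prefer JNK and p38: DUSP8 at 61.6 ± 8.85 CPM in shACSL4 and 35.8 ± 1.37 CPM in shControl (log2 fold change 0.79), DUSP16 at 266 ± 15.03 CPM in shACSL4 and 207 ± 16.3 CPM in shControl (0.36), and DUSP10 at 4.65 ± 0.197 CPM in shACSL4 and 3.01 ± 0.256 CPM in shControl (0.63, adjusted p = 0.0215 in edgeR; SD, n = 3 for each level). Of the 3 cytoplasmic ERK phosphatases none rose: DUSP7 fell (-0.60, SE 0.11, adjusted p = 0.000219, edgeR), DUSP6 is described above, and DUSP9, with 11 to 34 counts per library, had an interval of -0.97 to 0.73. Of the 4 inducible nuclear phosphatases, DUSP1 and DUSP4 rose, and DUSP5 and DUSP2 (-0.53, SE 0.16, adjusted p = 0.0114, edgeR) fell.

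Of the 4 other Sprouty and SPRED genes, SPRED2 rose, at 88.5 ± 3.20 CPM in shACSL4 and 69.2 ± 3.91 CPM in shControl (SD, n = 3 each; log2 fold change 0.35, adjusted p = 0.00238, edgeR), and the other 3 were not called. The median change of the 4 was 0.23, and 47.2% of all genes tested were called. SPRY1 was at 26.04, 26.1 and 28.2 CPM in shACSL4 and 24.0, 25.9 and 21.2 CPM in shControl and was not called (0.17, adjusted p = 0.203, edgeR). SPRY3 and SPRED3, with at most 72 counts in any library, were not called. Without shACSL4 replicate 3, 1 of the 4 genes was called lower, and with library size alone as scaling 2 were called higher. ETV1, the other PEA3 gene, did not pass the filter on low counts: it had 8, 13 and 9 reads in shACSL4 and 1, 7 and 5 in shControl. PHLDA2 fell (-0.47, SE 0.10, adjusted p = 0.00107, edgeR), as did PHLDA3, which had 5, 11 and 10 counts in shACSL4 against 101, 98 and 84 in shControl. Of the 5 tested genes of this list, which also holds CIC and its partners, 3 fell and 1 rose. Among all genes tested 23.1% were lower and 24.0% higher. The median change of the 5 was -0.46. PHLDA1 and both of its measured relatives were thus lower in shACSL4.

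CIC, the repressor of ETV4, ETV5 and other genes of this set, rose. It was at 59.8, 67.5 and 53.8 CPM in shACSL4 replicates 1, 2 and 3, against 24.6, 15.002 and 21.9 CPM in shControl replicates 1, 2 and 3 (log2 fold change 1.56, SE 0.14, adjusted p = 1.74e-07, edgeR). Of its 50 nearest tested coding genes on chromosome 19, 19 were called higher and 5 lower, with a median of 0.32. Among all genes tested 24.0% were higher and 23.1% lower, with a median of 0.01. Its partner ATXN1 fell (-0.46, SE 0.10, adjusted p = 0.00119, edgeR) and ATXN1L was not called (-0.24, adjusted p = 0.0761). What part, if any, CIC had in the changes of ETV4 or the other genes was not tested.

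**Figure D3:**
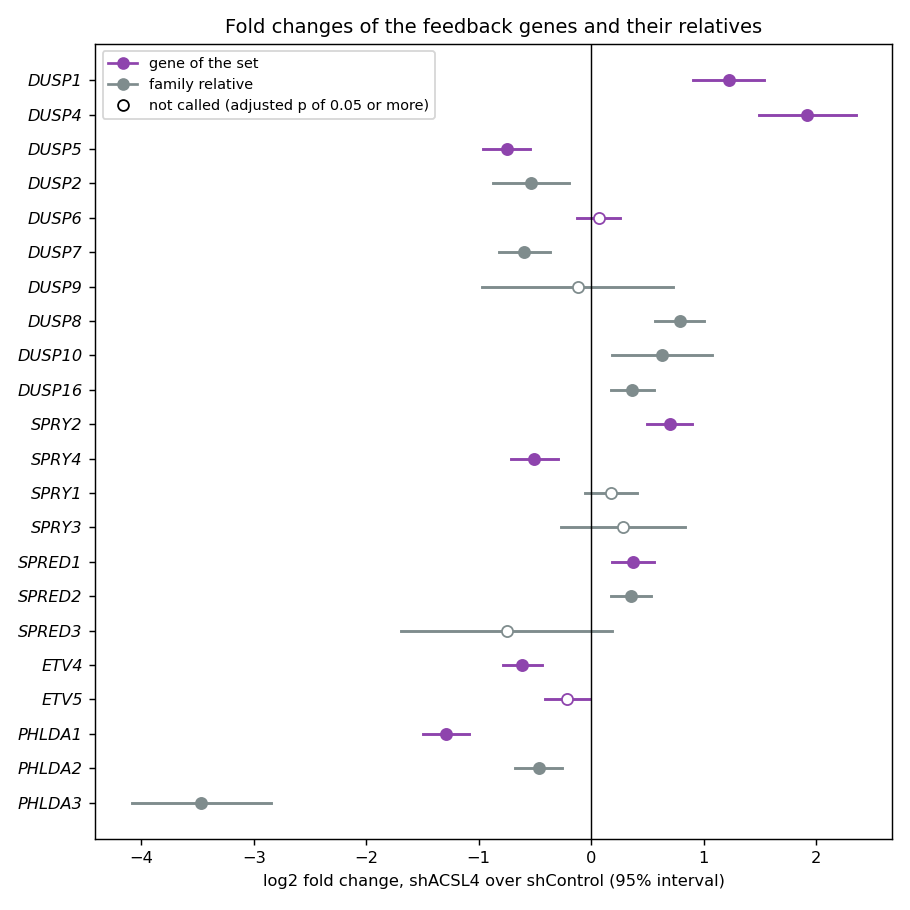
Log2 fold change of shACSL4 over shControl with its 95% interval for the 10 genes (purple) and their family relatives (grey); filled circles were called at an adjusted p below 0.05 in edgeR. DUSP4 at 1.92 and PHLDA1 at -1.29 mark the ends of the 10 genes, the interval of DUSP6 spans 0, and PHLDA3 at -3.47 lies beyond them.

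The cascade that leads to ERK was measured through 22 genes, from the receptor adaptors to the ERK-activated kinases. Of these, 6 fell, 2 rose and 14 were not called, so 8 of 22 were called where 47.2% of all genes tested were. Over the alternatives, 6 to 8 fell (8 without shControl replicate 2) and 2 to 4 rose (4 with library size alone). The number called thus depended on the setting. Their median change was -0.09 and their median absolute change 0.20, beside 0.35 for all genes tested. MAP2K1, which encodes MEK1, fell (-0.75, SE 0.08, adjusted p = 1.96e-06, edgeR), at 80.9 ± 2.84 CPM in shACSL4 and 136 ± 7.62 CPM in shControl (SD, n = 3 each). The adaptor GRB2 fell (-0.66), as did the kinase gene RPS6KA1 (-0.44) and MAPK3, which encodes ERK1 (-0.38). KSR1, a scaffold that holds RAF and MEK together, rose (0.83, SE 0.15, adjusted p = 0.000271, edgeR). BRAF (-0.07) and MAP2K2 (0.05) were among those not called.

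Of 15 receptor and ligand genes, 6 were higher and 4 lower, with a median change of 0.17, where 24.0% of all genes tested were higher and 23.1% lower. Leaving out 1 library at a time gave 4 to 6 higher, with 4 when shACSL4 replicate 1, shACSL4 replicate 2 or shControl replicate 3 was left out. The ligand gene EGF fell most, with 13, 11 and 21 counts in shACSL4 against 139, 132 and 137 in shControl (log2 fold change -3.21, SE 0.25, adjusted p = 3.43e-08, edgeR). AREG, which encodes the EGFR ligand amphiregulin, rose to 267 ± 33.4 CPM in shACSL4, against 159 ± 10.7 CPM in shControl (SD, n = 3 each; 0.74). The receptor gene FGFR2 rose (2.65, SE 0.31), with 55, 77 and 76 counts in shACSL4 and 15, 8 and 9 counts in shControl, and FGFR4 fell (-0.57, SE 0.08).

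Other genes that ERK induces were again mixed. Of 15 listed, 14 were tested, 6 rose and 3 fell, with a median change of 0.21, where 47.2% of all genes tested were called. The number called higher was between 4, with a mean of at least 50 counts required, and 8, with library size alone. EGR1 was at 150.4, 226 and 161 CPM in shACSL4 replicates 1, 2 and 3, against 90.1, 89.1 and 95.4 CPM in shControl replicates 1, 2 and 3 (0.97, SE 0.12, adjusted p = 7.52e-06, edgeR), and IER2 rose as well (0.59). The sphingosine kinase gene SPHK1 fell (-1.45, SE 0.15), as did the cytokine gene LIF (-0.72, SE 0.11). FOS was at 128 ± 16.1 CPM in shACSL4 and 127 ± 11.2 CPM in shControl (SD, n = 3 each) and was not called (0.02, adjusted p = 0.911, edgeR). EPHA4, below the filter, had at most 2 counts in any library.

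**Figure D4:**
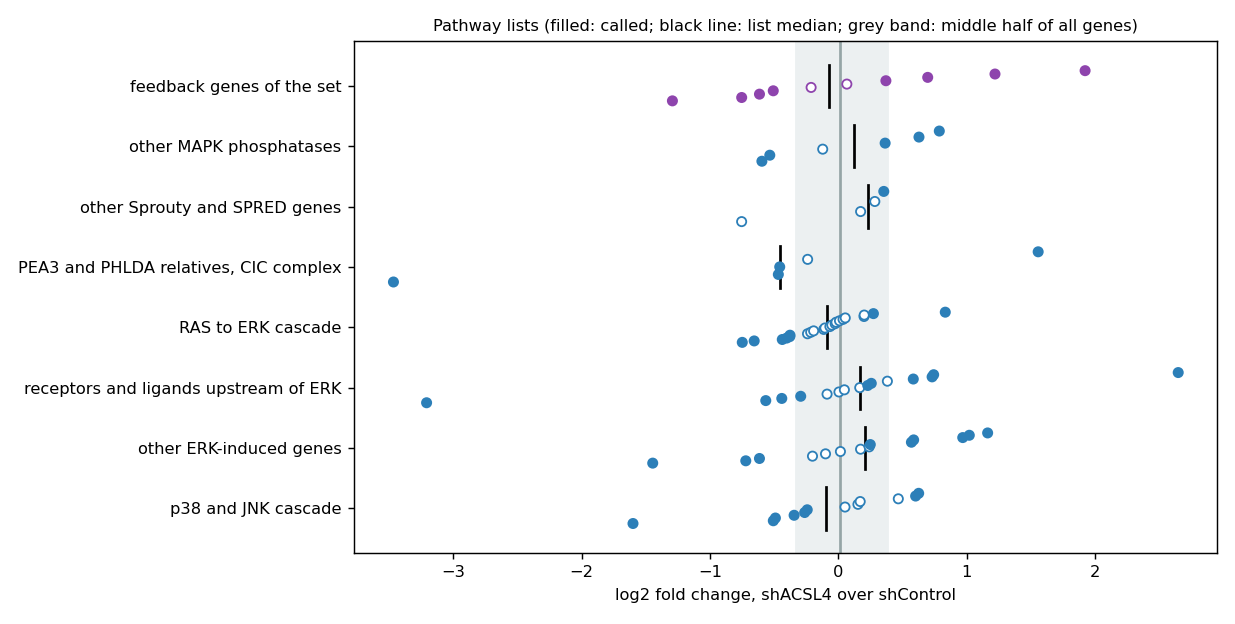
Log2 fold change of shACSL4 over shControl for the 10 genes (purple) and for each pathway list (blue), one point per tested gene; filled points were called in edgeR, black lines are list medians, and the grey band and line give the interquartile range and the median of all genes tested. The 10 genes spread from -1.29 to 1.92 around a median of -0.07, and the band for all genes tested runs from -0.33 to 0.38.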

How the data were processed

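RNA was sequenced from T84 cells after ribosomal RNA removal and an NEB library method, per the labels' protocols. The submitters' processing notes name CASAVA, HISAT2 and the GRCh38 (hg38) build. Which program counted the reads, and whether by strand, is not given in the sources used here. The authors deposited raw read counts per gene and FPKM per library, per the file headers; the FPKM equal counts divided by the deposited gene length and a library constant. The authors also deposited group mean signal values, log2 fold changes and p-values, from which the report copies 3 fold changes and uses nothing else. Columns headed NC were taken as shControl, being the only other group, and matched by number. All 58735 gene identifiers matched GENCODE release 29.

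The tests were computed from the counts: filterByExpr, TMM scaling and quasi-likelihood fits in edgeR (version 4.0.16, under R 4.3.3 with limma 3.58.1) over all 6 libraries without covariates. Every fold change has shACSL4 on top and shControl below. SE is the absolute log2 fold change divided by the square root of F. At this depth 3 counts correspond to 0.171 to 0.202 CPM. No molecular identifiers are mentioned, so the counting errors given cover counting alone. Members and pathway lists were chosen with earlier results of these data known. The text names the 4 called genes of lowest adjusted p in each list (fewer where fewer were called), with SPRY1, DUSP10, ETV1, SPRED2, MAPK3, EGR1 and FOS in any case; some genes of the lists are not reported here by name, and other genes were named after their values were seen. Alternatives are DESeq2 (1.42.0), other scalings and filters, limma-voom, limma-trend on log2(FPKM + 1) and log2(FPKM + 0.1), protein coding genes alone, the replicate block and leaving out each library. Promoter windows are from RefSeq on GRCh38.p14.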

Additional observations from a re-analysis of the deposited data

How the results depend on the processing

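The 4 rises and 4 falls among the 10 genes were the same in number under all 16 alternatives, and none of the 10 changed direction in these or relative to neighbouring genes. Over the 10 genes, the change of DUSP4 ranged from 0.84 with log2(FPKM + 1) to 2.10 without shControl replicate 2, that of PHLDA1 from -1.34 to -1.18, and that of DUSP6 from 0.01 to 0.19, never called (adjusted p 0.0719 to 0.956). ETV5 was not called in any setting that gave an adjusted p. Set against the median of the 50 genes around it, ETV5 stood at -0.36 (unadjusted p = 0.00159, which is not a call). That setting was added after seeing the data, and the neighbours' own error is left out of it. Elsewhere its change lay between -0.25 and -0.09, nearest to 0 with library size alone. That scaling moved the median of all genes to 0.13 and the share of calls that were higher in shACSL4 to 65.6%, against 50.9% with TMM, with 4878 genes higher and 2561 lower. DESeq2 called 3459 higher and 3560 lower. Replicate numbers did not pair the libraries: deviations from the group means correlated at 0.06, -0.001 and 0.008 across genes for replicates 1, 2 and 3, and not every library correlated best with its own number. With the replicate block 3769 genes were higher and 3645 lower, against 3769 and 3631 without it, and the calls of the 10 genes were 4 and 4. In the cascade of p38 and JNK, library size alone gave 4 higher and 3 lower, against 2 and 6. Without 1 library at a time, 2 to 3 of the other MAP kinase phosphatases were higher and 1 to 2 lower. Depth limits DUSP9, SPRY3, SPRED3 and ETV1, whose counts were low.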

Other observations

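The cascades that DUSP1, DUSP8, DUSP10 and DUSP16 are known to restrain were measured beside ERK's. Of 12 genes of the p38 and JNK cascades, 6 fell and 2 rose in shACSL4 (3 and 4 with library size alone; 4 fell without shACSL4 replicate 2), and 4 were not called by edgeR. Among all genes tested 23.1% were lower and 24.0% higher. The median change of the 12 was -0.10. MAPK14, which encodes p38 alpha, was at 113 ± 7.62 CPM in shACSL4 and 160 ± 13.7 CPM in shControl (SD, n = 3 each; log2 fold change -0.51, adjusted p = 0.000232, edgeR). Its activating kinase gene MAP2K3 fell by a similar amount (-0.49, SE 0.09). MAPK8, which encodes JNK1, rose to 35.4 ± 2.14 CPM in shACSL4, against 23.3 ± 2.51 CPM in shControl (SD, n = 3 each; 0.60, adjusted p = 0.000202, edgeR). MAPK12, another p38 gene, had 15, 17 and 16 counts in shACSL4 and 56, 53 and 34 counts in shControl (-1.60, SE 0.31).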
